A study of Homo sapiens with 6 samples.

Results

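The 10 genes described here encode 4 interferons, *IFNB1*, *IFNL1*, *IFNL2* and *IFNL3*, and the 6 chains of the receptors for interferons of all types, *IFNAR1*, *IFNAR2*, *IFNLR1*, *IL10RB*, *IFNGR1* and *IFNGR2*. They were picked by symbol from a table of 22807 genes, and all 10 were found. They were selected on values of these same libraries, since the rise of the interferon genes with *DUSP6* siRNA was already known when the list was made. The differences between groups of the 10 genes are therefore a description and carry no test. The libraries were made from MDA-MB-453, an established breast cancer cell line with high HER2, the receptor tyrosine kinase encoded by *ERBB2*. One group of 3 libraries came from cells transfected with scrambled siRNA, a control without an intended target, and the other group of 3 from cells transfected with siRNA against *DUSP6*, the gene of a phosphatase that inactivates the kinase ERK. The paper's legend gives 3 different siRNAs in each group, and which of them was used for which library is not known here. The libraries are called controls 1 to 3 (scrambled siRNA) and knockdowns 1 to 3 (*DUSP6* siRNA), by the replicate number in the labels. Both groups were transfected with siRNA, and cells without transfection were not analysed here. Nothing in the labels says that the libraries of a group came from separate cultures. The p-values therefore measure the spread between these libraries, which may be technical and may include differences between the siRNAs of a group.

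Interferons are secreted proteins that warn neighboring cells of infection. Type I interferons, to which interferon beta (*IFNB1*) belongs, bind a receptor of the chains IFNAR1 and IFNAR2 that is found on nearly all cells. Type III interferons (lambda, *IFNL1* to *IFNL4*) bind IFNLR1 together with IL10RB and act mainly on epithelial cells, because IFNLR1 is largely restricted to them. Both receptors pass the signal through the kinases JAK1 and TYK2 to a complex with STAT2 and IRF9 that switches on a shared set of antiviral genes. Interferon gamma, the only type II interferon, uses IFNGR1 and IFNGR2 and the kinases JAK1 and JAK2. In epithelial cells the genes of interferon beta and lambda are silent at rest and are switched on by factors of the IRF and NF-kB families once sensors find foreign or displaced nucleic acids.

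The sequences before the 4 interferon genes are shown because IRF and NF-kB bind there and because the 4 genes differed in the same direction between the groups. They were read from RefSeq on GRCh38.p14, 250 bases ending at the base before the gene start, on the strand of the gene. Capitals mark matches to AANNGAAA, the core letters of an IRF site, and to GGNNNTTCC, a form of the NF-kB site, with each motif searched on both strands.
*IFNB1*, chr9:21077943-21078192, minus strand: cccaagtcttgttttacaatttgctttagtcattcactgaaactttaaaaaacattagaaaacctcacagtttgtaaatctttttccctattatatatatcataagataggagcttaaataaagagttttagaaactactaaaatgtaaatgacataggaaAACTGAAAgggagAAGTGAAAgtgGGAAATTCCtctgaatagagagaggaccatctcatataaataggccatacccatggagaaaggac
*IFNL1*, chr19:39296157-39296406, plus strand: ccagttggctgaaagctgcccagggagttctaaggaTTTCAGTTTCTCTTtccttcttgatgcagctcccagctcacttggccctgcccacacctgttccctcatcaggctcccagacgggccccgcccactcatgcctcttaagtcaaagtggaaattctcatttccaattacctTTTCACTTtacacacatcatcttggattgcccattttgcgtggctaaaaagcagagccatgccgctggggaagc
*IFNL2*, chr19:39268146-39268395, plus strand: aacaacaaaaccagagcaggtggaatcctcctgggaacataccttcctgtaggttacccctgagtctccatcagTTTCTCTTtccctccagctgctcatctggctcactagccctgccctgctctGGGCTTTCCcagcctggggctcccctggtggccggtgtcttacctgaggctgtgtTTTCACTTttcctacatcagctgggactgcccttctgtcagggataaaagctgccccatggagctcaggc
*IFNL3*, chr19:39245251-39245500, minus strand: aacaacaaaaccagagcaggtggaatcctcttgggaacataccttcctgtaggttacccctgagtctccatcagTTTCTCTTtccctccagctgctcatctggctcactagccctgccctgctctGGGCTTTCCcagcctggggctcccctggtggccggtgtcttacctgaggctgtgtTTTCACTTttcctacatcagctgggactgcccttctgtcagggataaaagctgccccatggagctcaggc

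The *IFNB1* window held 2 IRF matches, from 89 to 82 and from 76 to 69 bases before the start. Next to them, from 65 to 57 bases before the start, it held an NF-kB match that reads the same on both strands. The *IFNL1* window held 3 IRF matches, from 214 to 207, from 208 to 201 and from 74 to 67 bases before the start. The first pair of them overlap, and the window held 0 NF-kB matches. The *IFNL2* and *IFNL3* windows each held 2 IRF matches, from 176 to 169 and from 70 to 63 bases before the start, with an NF-kB match between them from 125 to 117. These last 2 windows differ at 1 of 250 bases, 220 bases before the start. All 4 windows share the exact letters AAGTGAAA (TTTCACTT on the other strand in the lambda genes) near the start, a feature chosen after the sequences had been seen. Of 35116 promoter windows of this length, 1.37% hold those exact letters, 20.3% hold AANNGAAA, 17.1% hold GGNNNTTCC and 3.16% hold both motifs. At least 3 IRF matches, as before *IFNL1*, are found in 0.92%. A second RefSeq start of *IFNL3*, inside the gene, had neither motif in its window. Among the receptor chains, 7 windows of 5 genes were at hand. None of these windows held an IRF match, and 1, before a start that lies inside *IFNGR2*, held 2 NF-kB matches. A match is a stretch of letters and not a shown binding site.

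The targeted gene was lower in every *DUSP6* siRNA library. *DUSP6* (chr12:89347235-89352501) had a normalized value of 208.5, 110.1 and 114.0 across controls 1 to 3 and of 39.4, 24.5 and 35.2 across knockdowns 1 to 3. Its log2 fold change was -2.05 (standard error 0.25, limma, Benjamini-Hochberg adjusted p = 3.09e-04). An unnamed antisense gene covers 28.6% of its exon sequence, so its value is uncertain. A normalized value is the reads of a gene per 1000000 reads of the library, with the library size scaled by the TMM method for composition. The libraries held 45546981 to 85729785 reads, and 1 read equals a value of 0.0121 to 0.0202. Correlations between libraries were at least 0.987 within a group and at most 0.963 between groups. Of 8 luminal and HER2 markers 7 were lower and 1 higher with *DUSP6* siRNA, and *ERBB2* was high in both groups, with means of 984 and 495, though *MIEN1* covers 5.53% of its exon sequence and its value is uncertain. The other 2 of the 3 with the largest changes were *KRT19*, a keratin, at 836 and 233, and *FOXA1*, a luminal transcription factor, at 531 and 302. Of 8 immune cell markers 4 were in the table, with a summed value of 0.153 to 0.193 in scrambled siRNA libraries and of 0.309 to 0.391 in *DUSP6* siRNA libraries. *PTPRC*, which marks all white blood cells, had 4 and 10 reads in the groups. Of 4 fibroblast markers 3 were in the table, with a summed value of 80.7 to 105 in scrambled siRNA libraries and of 162 to 192 in *DUSP6* siRNA libraries. Nearly all of that sum was the collagen gene *COL1A1*. A part of these markers in the results below was not tested.

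All 4 interferon genes were near 0 in the scrambled siRNA libraries and had 129 to 1001 reads in each *DUSP6* siRNA library. *IFNL1* (Entrez gene 282618, chr19:39296407-39298673) had 1, 2 and 10 reads across controls 1 to 3 and 756, 639 and 1001 reads across knockdowns 1 to 3. As normalized values these were 0.0149, 0.0383 and 0.121 against 15.3, 7.81 and 15.5. Every *DUSP6* siRNA library was far above every scrambled siRNA library, and the lowest of them was replicate 2. The mean was 0.0579 ± 0.0555 (SD, n = 3) over the controls and 12.9 ± 4.37 (SD, n = 3) over the knockdowns. Over the pooled libraries the depth-corrected ratio was 190 (95% interval 111 to 358, exact, for counting error only). This interval and those of the pooled ratios below leave out the spread between libraries of a group. On the log2(value + 1) scale, on which the change of low genes is understated, the difference was 3.66 (standard error 0.22). In bulk RNA, a few cells that make much interferon RNA and many cells that make little cannot be told apart, nor can fewer cells of a type and less RNA per cell.

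*IFNL2* (Entrez gene 282616, chr19:39268396-39270188) had 3, 0 and 6 reads across controls 1 to 3 and 481, 430 and 721 across knockdowns 1 to 3. The mean normalized value was 0.0390 ± 0.0365 (SD, n = 3) and 8.71 ± 3.07 (SD, n = 3), and the pooled ratio was 187 (95% interval 98.4 to 410). *IFNL3* (Entrez gene 282617, chr19:39243455-39245250) had 0, 0 and 3 reads with scrambled siRNA and 291, 295 and 452 with *DUSP6* siRNA. With so few control reads, all in control 3, its pooled ratio of 357 is loosely bounded. The 95% interval of 122 to 1736 covers counting error only. The difference on the log2(value + 1) scale was 3.17 (standard error 0.22) for *IFNL2* and 2.64 (standard error 0.19) for *IFNL3*. These 2 genes are near copies. Of the stretches of 50 bases in the *IFNL3* transcript 30.3% are also in that of *IFNL2*, as are 13.1% of those of 75 bases and 5.41% of those of 100 bases. The stretches shared in the other direction were 22.2%, 9.46% and 3.87%. Reads from such stretches cannot be assigned, so the split between *IFNL2* and *IFNL3* is uncertain, while no stretch of 50 bases was shared with *IFNL1* or *IFNB1*.

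*IFNB1* (Entrez gene 3456, chr9:21077104-21077942) was the least abundant of the 4 with *DUSP6* siRNA. It had 1, 0 and 10 reads across controls 1 to 3 and 181, 129 and 303 reads across knockdowns 1 to 3. The normalized values were 0.0149, 0 and 0.121 against 3.66, 1.58 and 4.68. The groups did not overlap, and again replicate 2 was lowest and replicate 3 highest among the *DUSP6* siRNA libraries. The mean was 0.0451 ± 0.0657 (SD, n = 3) and 3.31 ± 1.58 (SD, n = 3), with a pooled ratio of 57.6 (95% interval 31.9 to 116). Control 3 held 10 of the 11 control reads, and the interval leaves out this spread between libraries. The difference on the log2(value + 1) scale was 1.97 (standard error 0.25).

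**Figure D1:**
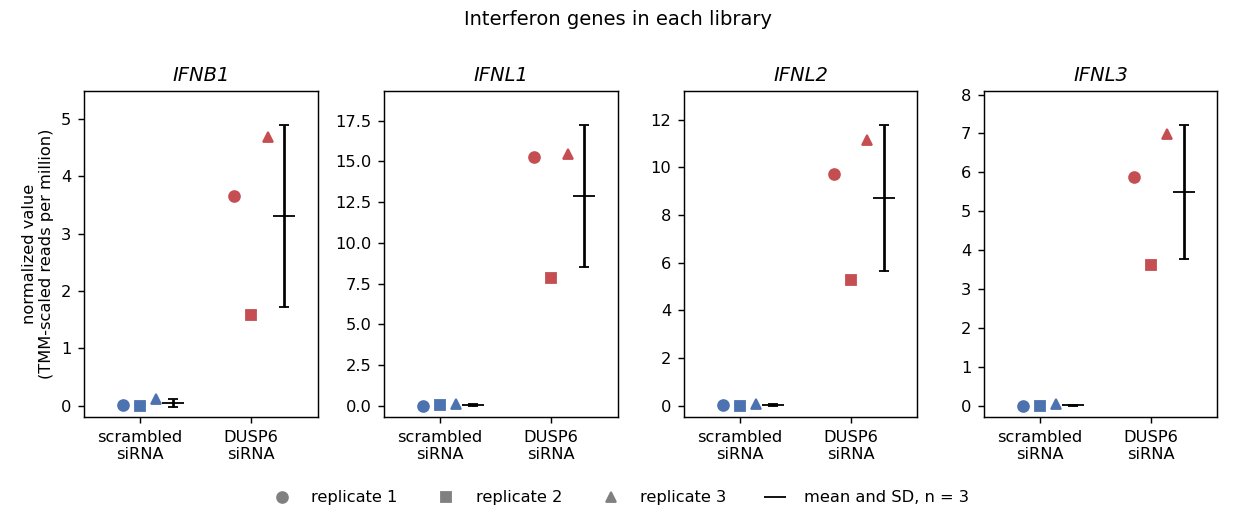
Normalized value (TMM-scaled reads per 1000000, linear axis) of the 4 interferon genes in each library. Points are libraries, shaped by replicate number, and bars are the mean and SD of 3 libraries. Each panel has its own axis. All scrambled siRNA points lie at or below 0.121, and *DUSP6* siRNA replicate 2 is the lowest of its group in every panel.

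The 4 interferon genes shared a pattern over the libraries. Together they had 5, 2 and 29 reads across controls 1 to 3, so replicate 3 held 29 of the 36 reads of the control group. They had 1709, 1493 and 2477 reads across knockdowns 1 to 3, or summed normalized values of 34.6, 18.3 and 38.3. The value in *DUSP6* siRNA replicate 2 was 0.378 times the mean of replicates 1 and 3 for *IFNB1*, 0.508 times for *IFNL1*, 0.504 times for *IFNL2* and 0.561 times for *IFNL3*. The residual *DUSP6* value was also lowest in that library, at 0.657 times the mean of replicates 1 and 3. Of the 12 tested target genes of interferon described further on, 11 had their lowest *DUSP6* siRNA value in replicate 2. Also, 11 had their highest scrambled siRNA value in replicate 3. The share of all genes tested with these patterns is not given here, so the counts are not shown to be particular to interferon targets. These are 6 libraries of which each is a single point, and the source of the differences within a group was not tested.

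The make-up of the interferon reads varied less than their amount. *IFNL1* took 44.2% (95% exact binomial interval 41.9 to 46.6), 42.8% (40.3 to 45.4) and 40.4% (38.5 to 42.4) of the reads on the 4 genes across knockdowns 1 to 3. *IFNL2* and *IFNL3*, summed because their reads are hard to separate, took 45.2%, 48.6% and 47.4%. Any reads of their shared stretches left uncounted would make this share too low and those of *IFNL1* and *IFNB1* too high. *IFNB1* took 10.6%, 8.64% and 12.2%. The lambda genes thus held most of the interferon reads in each library, and the interval of *IFNB1* in replicate 2 (7.26 to 10.2) lies below that in replicate 3 (11.0 to 13.6). The share of *IFNL2* in the reads of *IFNL2* and *IFNL3* was 62.3%, 59.3% and 61.5%, with intervals that all overlap. These intervals cover counting error only.

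**Figure D2:**
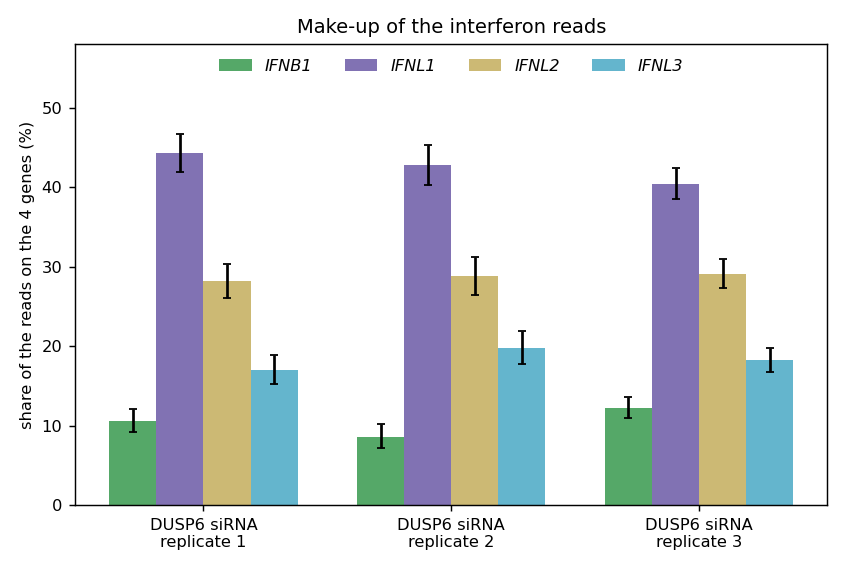
Share of each interferon gene in the reads on the 4 interferon genes (percent, linear axis from 0) in the 3 *DUSP6* siRNA libraries, with exact 95% binomial intervals. *IFNL1* has the tallest bar in each library, at 40.4% to 44.2%, and *IFNB1* the shortest, at 8.64% to 12.2%. The split between *IFNL2* and *IFNL3* is uncertain.

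The other interferon genes did not show such levels. Of 18 listed, 8 were in the table. Each of the 8 had at least 1 read, and all fell under the limit for testing, a mean value of 1. The other 10, with *IFNE* and *IFNG* among them, were absent from the table, so their levels are not known here. *IFNL4*, which lies upstream of *IFNL3* (chr19:39246314-39248856), had 2, 0 and 1 reads with scrambled siRNA and 30, 21 and 23 reads with *DUSP6* siRNA. Its pooled ratio was 25.5 (95% interval 8.39 to 126, for counting error only). The 5 interferon alpha genes with a read, *IFNA1*, *IFNA5*, *IFNA7*, *IFNA10* and *IFNA21*, had 6 reads in all with scrambled siRNA and 4 with *DUSP6* siRNA. These genes are near copies of each other, so single reads may be misplaced among them. *IFNW1*, the interferon omega gene, had 1 read with scrambled siRNA and 3 with *DUSP6* siRNA. *IFNK*, the interferon kappa gene of skin, had 0 and 2 reads. A small change of these alpha genes was not detectable at this depth.

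Of the 3 measured genes on each side of *IFNB1* on chromosome 9, none reached the limit for testing. *HACD4*, an enzyme gene of fatty acid elongation, had means of 0.518 and 0.523, with groups that overlapped. Around the lambda genes on chromosome 19, *PAK4*, a kinase gene, was lower with *DUSP6* siRNA (log2 fold change -0.95, limma adjusted p = 1.64e-04), as was *SAMD4B*, which encodes an RNA-binding protein (-0.82, limma adjusted p = 1.70e-04). *LRFN1*, which encodes a synaptic adhesion protein and lies next to *IFNL1*, was under the limit. It had values of 0.268, 0.326 and 0.193 with scrambled siRNA and of 1.25, 1.04 and 0.973 with *DUSP6* siRNA. The groups of *LRFN1* did not overlap, and it was higher while *PAK4* and *SAMD4B* were lower.

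The receptor chains differed far less between the groups than the interferon genes. *IFNAR1* (Entrez gene 3454, chr21:33324395-33359864), the chain of the type I receptor that carries TYK2, had values of 89.1, 79.3 and 80.8 with scrambled siRNA and of 69.4, 80.2 and 73.1 with *DUSP6* siRNA. The groups overlapped, and the log2 difference was -0.16 (standard error 0.09). *IFNAR2* (Entrez gene 3455, chr21:33229938-33265664), the chain that binds type I interferon most tightly and carries JAK1, had values of 1.53, 1.23 and 1.71 with scrambled siRNA and of 2.18, 2.80 and 2.24 with *DUSP6* siRNA. Here the groups did not overlap. The mean was 1.49 ± 0.245 (SD, n = 3) and 2.41 ± 0.341 (SD, n = 3), and the log2 difference was 0.45 (standard error 0.13). *IFNAR2* is the only receptor chain that was called, and the call was lost under quantile normalization (0.33) and without *DUSP6* siRNA replicate 2 (0.37). Exons of the readthrough gene *IFNAR2-IL10RB* cover 14.7% of its exon sequence and those of the antisense gene *IL10RB-DT* 13.0%, so its value is uncertain.

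*IFNLR1* (Entrez gene 163702, chr1:24154168-24187289), the chain particular to the lambda receptor, had few reads in all libraries. It had 18, 10 and 15 reads across controls 1 to 3 and 12, 20 and 16 across knockdowns 1 to 3. In normalized values this was 0.213 ± 0.0474 (SD, n = 3) and 0.245 ± 0.00229 (SD, n = 3), under the limit for testing and with groups that overlapped. A small difference of this gene was not detectable at this depth. *IL10RB* (Entrez gene 3588, chr21:33266367-33310182), the partner chain, which also serves receptors of the interleukin 10 family, had values of 12.5, 18.9 and 16.9 with scrambled siRNA and of 19.9, 22.2 and 20.1 with *DUSP6* siRNA. The groups did not overlap, though scrambled siRNA replicate 2 came close to the *DUSP6* siRNA libraries. Its log2 difference was 0.36 (standard error 0.15) and was not called, but it was called at 0.48 without scrambled siRNA replicate 2. Exons of *IFNAR2-IL10RB* cover 21.6% of its exon sequence, so this value is uncertain too.

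The chains of the interferon gamma receptor overlapped between the groups. *IFNGR1* (Entrez gene 3459, chr6:137197484-137219385), the ligand-binding chain, had values of 51.7, 47.1 and 54.2 with scrambled siRNA and of 51.0, 55.6 and 56.1 with *DUSP6* siRNA, a log2 difference of 0.09 (standard error 0.09). *IFNGR2* (Entrez gene 3460, chr21:33402882-33437516), the chain that carries JAK2, had values of 15.0, 18.1 and 19.3 with scrambled siRNA and of 15.2, 19.3 and 16.1 with *DUSP6* siRNA, a log2 difference of -0.05 (standard error 0.13). The sign of the *IFNGR2* difference turned without scrambled siRNA replicate 3 and without *DUSP6* siRNA replicate 1. Exons of the antisense neighbor *TMEM50B* cover 15.0% of those of *IFNGR2*, so its value is uncertain, and *TMEM50B* was higher with *DUSP6* siRNA (log2 fold change 0.50, limma adjusted p = 0.00633).

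**Figure D3:**
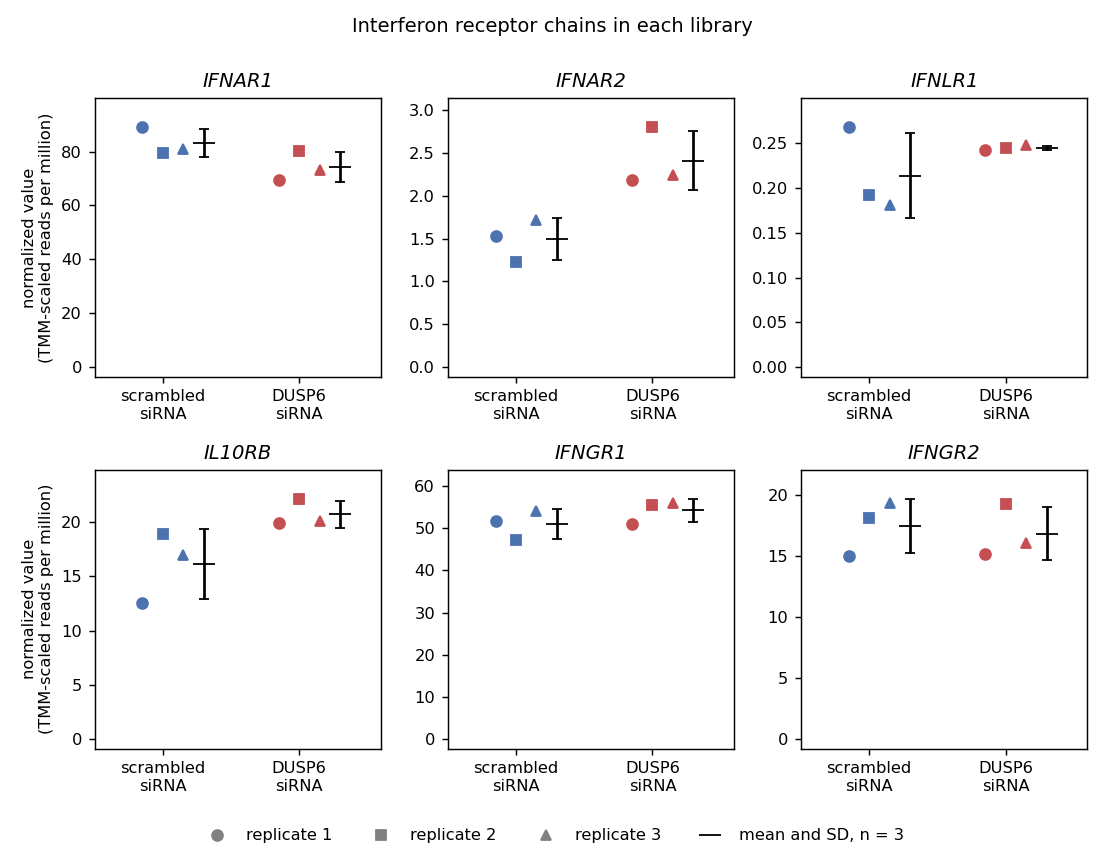
Normalized value (TMM-scaled reads per 1000000, linear axes from 0) of the 6 receptor chains in each library. Points are libraries, shaped by replicate number, and bars are the mean and SD of 3 libraries. *IFNAR2* and *IL10RB* are the 2 chains whose *DUSP6* siRNA points all lie above the scrambled siRNA points, and *IFNLR1* stays at or under 0.268 in all libraries.

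Of the 10 genes, 9 had a mean value of at least 1 and entered the limma fit, and *IFNLR1* did not. The 4 interferon genes reached this limit only through the *DUSP6* siRNA libraries and had to differ between the groups, whereas for 5 receptor chains both groups were above it. At an adjusted p under 0.05, 5 genes were called higher and 0 lower, and 4 were not called. Of all genes tested, 19.7% were called higher and 24.7% lower. In 6 of the 10 genes all *DUSP6* siRNA libraries were above all scrambled siRNA libraries, which held for 26.7% of all genes tested. Since the genes were chosen for this contrast, these counts only describe them.

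Divided by the length of the transcript in kilobases, the levels of the 10 genes can be set side by side. In scrambled siRNA libraries the order of the receptor chains by mean value per kilobase was *IFNGR1* (24.6), *IFNAR1* (13.7), *IFNGR2* (10.3), *IL10RB* (8.31), *IFNAR2* (0.366) and *IFNLR1* (0.0467). Among neighbors in this order, only the libraries of *IFNGR2* and *IL10RB* overlapped. With *DUSP6* siRNA the order was *IFNGR1* (26.2), *IFNAR1* (12.2), *IL10RB* (10.7), *IFNGR2* (9.92), *IFNAR2* (0.591) and *IFNLR1* (0.0536), and again only *IL10RB* and *IFNGR2* overlapped. In both groups the type I and the type III receptor each had an abundant chain and a scarce one. The lengths are those of canonical GENCODE transcripts, and another isoform would move these levels.

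The ratios of paired chains show the same imbalance library by library. The value per kilobase of *IFNAR1* was 39.0, 43.4 and 31.7 times that of *IFNAR2* across controls 1 to 3 and 21.3, 19.2 and 21.9 times with *DUSP6* siRNA. The groups did not overlap, with means of 38.0 ± 5.91 (SD, n = 3) and 20.8 ± 1.41 (SD, n = 3). *IL10RB* exceeded *IFNLR1* by a ratio of 110, 232 and 221 with scrambled siRNA and of 193, 213 and 191 with *DUSP6* siRNA. *IFNGR1* and *IFNGR2* were closer to balance, with ratios of 2.82, 2.13 and 2.30 and of 2.75, 2.36 and 2.86. For these last 2 receptors the groups overlapped.

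Set beside their receptors on the same scale, all 4 interferon genes were below *IFNAR2* with scrambled siRNA and above it with *DUSP6* siRNA. *IFNL1* had a mean value per kilobase of 0.0747 with scrambled siRNA and of 16.6 with *DUSP6* siRNA. The second mean lay between those of *IFNAR1* and *IFNGR1*. In *DUSP6* siRNA replicate 2, however, *IFNL1* was at 10.1, below *IFNAR1* at 13.2. The mean of *IFNL2* went from 0.0410 to 9.16, that of *IFNL3* from 0.0170 to 7.75 and that of *IFNB1* from 0.0538 to 3.94. RNA levels say nothing of how much protein was made or secreted.

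**Figure D4:**
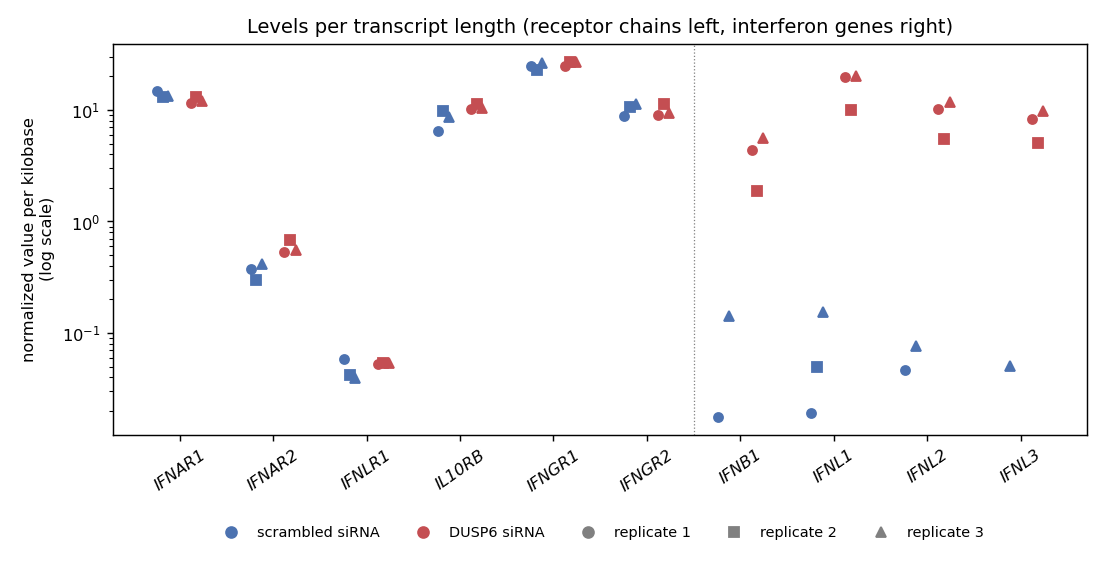
Normalized value per kilobase of transcript (log axis) of the 6 receptor chains, left of the dotted line, and of the 4 interferon genes, right of it, in each library. Libraries with a value of 0 (1 of *IFNB1*, 1 of *IFNL2* and 2 of *IFNL3*, all scrambled siRNA) cannot be drawn on a log axis. *IFNAR2* and *IFNLR1* lie below the other chains in both groups, and the *DUSP6* siRNA points of the interferon genes lie above both of these chains.

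Other genes of the pathway were taken from 7 lists of 75 genes, of which 65 were in the table and 45 were tested. With *DUSP6* siRNA 29 were called higher, 4 lower and 12 not called, against 19.7% higher and 24.7% lower among all genes tested. The median of all genes tested was -0.01 on the log2 scale. The lists were chosen with earlier results of these data known, so the calls and adjusted p-values of their genes only describe them. Of the other chains of the same receptor family, such as those for interleukins 10, 20 and 22, 2 of 6 were tested and neither was called. These were *IL20RB* (-0.06) and *F3* (-0.05), which encodes tissue factor. Among the kinases and transcription factors that work under the receptors all 6 were called higher, with a median of 1.33. *IRF9*, the DNA-binding part of the complex formed by type I and type III interferon, rose from 17.2 to 222 (log2 fold change 3.70, limma adjusted p = 1.07e-05). *STAT2* rose from 56.1 to 162 (log2 fold change 1.51, limma adjusted p = 2.18e-05). *STAT2* and *IRF9* are themselves known targets of interferon. An unnamed gene covers 23.9% of the exon sequence of *IRF9*, so its value is uncertain.

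Of 11 genes of receptor feedback and turnover, 4 were called higher, 0 lower and 7 not called, with a median of 0.21. *ISG15*, a ubiquitin-like modifier that steadies USP18, rose from 6.32 to 181 (log2 fold change 4.70, limma adjusted p = 9.07e-06). *USP18*, which binds IFNAR2 and damps type I signaling, rose from 47.6 to 118 (1.30, adjusted p = 1.80e-04). *SOCS1*, which inhibits the JAK kinases, rose from 0.921 to 1.81 (0.55). It reached the limit for testing only through the *DUSP6* siRNA libraries, so it had to be higher there and its call is no test. The fourth was *PTPN1*, a phosphatase of JAK2 and TYK2, at 0.50, named after its value had been seen.

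The 12 activators of interferon gene transcription moved both ways, with 5 called higher, 4 lower and 3 not called and a median of 0.07. *IRF7*, which amplifies interferon production and is itself a target of interferon, rose from 24.4 to 163 (log2 fold change 2.71, limma adjusted p = 2.74e-05). *IRF1* rose from 7.34 to 38.7 (2.24, adjusted p = 5.41e-06), with 22.9% of its exon sequence covered by the antisense gene *IRF1-AS1*, so that its value is uncertain. *IKBKE*, a kinase that activates IRF3 and IRF7, fell from 27.4 to 8.08 (-1.65, adjusted p = 2.37e-05). Those not called were 3 classical activators of *IFNB1*, *IRF3* (0.17), *RELA* (-0.18) and *JUN* (-0.04), named after their values had been seen. The amount and activity of their proteins are not shown by these libraries.

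The targets that type I and type III interferon share had the highest median of the pathway lists with a tested gene. Of 14 listed, 12 were tested and all 12 were called higher, with a median of 6.16, but 4 of the 12 passed the limit only through the *DUSP6* siRNA libraries. *IFI6*, an antiviral membrane protein, had 3.04, 1.82 and 13.1 across controls 1 to 3 and 1046, 1106 and 937 across knockdowns 1 to 3 (log2 fold change 7.56, limma adjusted p = 9.47e-06). It is the gene of the list whose highest *DUSP6* siRNA value was in replicate 2, the library with the lowest interferon values. *LINC02574* covers 23.1% of its exon sequence, so its value is uncertain. *IFIT1*, which binds foreign RNA, had 4.58, 3.81 and 12.6 against 1043, 986 and 1096 (7.19, adjusted p = 1.51e-06). *OASL*, of the oligoadenylate synthetase family, had 1.85, 1.76 and 3.52 against 274, 241 and 304 (6.37, adjusted p = 1.67e-07). In all 3 genes scrambled siRNA replicate 3 was the highest control, as for the interferon reads.

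Genes best known as targets of interferon gamma were mostly too low to test. Of 8 listed, 2 were tested and both were called higher, with a median of 0.72. *HLA-DMA*, which loads peptides on class II molecules, rose from 3.74 to 7.02 (log2 fold change 0.76, limma adjusted p = 5.13e-04). Its partner *HLA-DMB* rose from 0.615 to 1.58 (0.68). An unnamed readthrough gene shares over 5% of the exon sequence of each, so both values are uncertain. *HLA-DMB* reached the limit only through the *DUSP6* siRNA libraries, so it had to be higher there and its call is no test. No difference between the lists was tested.

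**Figure D5:**
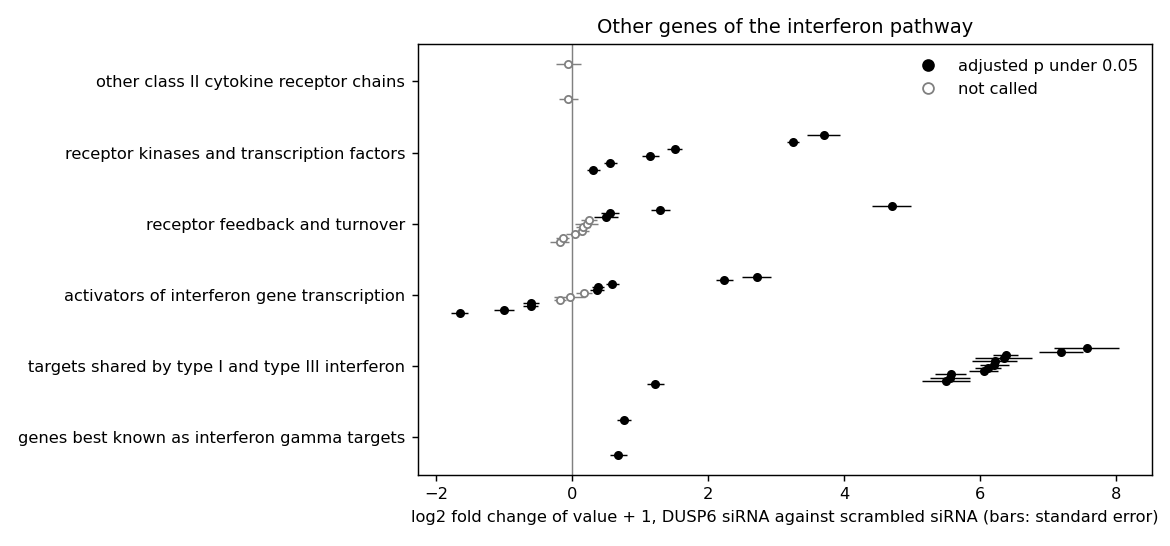
Log2 fold change of value + 1 with *DUSP6* siRNA against scrambled siRNA (points, with the standard error as bars) of the 45 tested pathway genes, grouped by list. Filled points passed an adjusted p under 0.05 by limma. Targets shared by type I and type III interferon lie furthest to the right with a median of 6.16, and the activators of interferon gene transcription lie on both sides of 0.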

How the data were processed

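RNA of 6 libraries of MDA-MB-453 cells (stranded mRNA kit) was sequenced, 3 after scrambled siRNA and 3 after *DUSP6* siRNA. Alignment to hg38 and assignment to RefSeq gene models were done by the authors in Rsubread, the assignment at the package's defaults, and a normalized signal value for each gene in each library was deposited, with bcl2fastq and edgeR named in the submitters' processing notes. These defaults do not use strand, so reads of antisense genes that overlap cannot be told apart. In each library all values were whole multiples (tolerance 1e-06) of the smallest positive one, so dividing by it gave back the reads. This unit was that of TMM-scaled reads per 1000000.

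limma 3.58.1 in R 4.3.3 (lmFit, eBayes with a trend) was run on log2(value + 1). The 12862 of 22807 genes whose mean reached 1 were tested, p-values were adjusted by the Benjamini-Hochberg method, and a gene was called below 0.05. Read ratios and shares have exact intervals from scipy 1.17.1. The fit was repeated with a pseudocount of 0.1, with all genes, with a mean of at least 10, after rescaling by DESeq2 1.42.0 size factors or by quantiles, with the replicate number as a block, with eBayes but no trend, and without each library. The quasi-likelihood test of edgeR 4.0.16 was run on the reads. limma and edgeR were tested on simulated data.

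The 10 genes and the pathway and marker lists were chosen with earlier results of these data known. The genes named were the 10, *DUSP6*, up to 3 called genes of each list with the largest change, other interferon genes with a read, chromosomal neighbors, and for *IFNL1*, *IFNB1* and each receptor chain the 3 genes with the most similar profile. A gene that this rule names is not reported here. Positions and promoter windows came from RefSeq on GRCh38.p14, which had positions for 22355 gene IDs, and lengths and exon overlaps from GENCODE. Genes sharing over 5% of their exon sequence with another gene were reported as uncertain. Overlap was not computed for most chromosomal neighbors, the genes similar to receptor chains and those named after their values had been seen. No promoter window of *IFNAR2* was at hand.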

Additional observations from a re-analysis of the deposited data

How the results depend on the processing

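The 4 interferon genes were selected on this contrast and passed the filter only through the *DUSP6* siRNA libraries, so their calls under the alternatives say nothing of stability. With a mean of at least 10 as the filter no called gene of the 10 was tested, so 0 were called higher, and 1639 of all genes were. Without 1 library, 4 to 6 of the 10 genes were called higher and 0 lower, 26 to 30 pathway genes higher and 4 to 5 lower, 1574 to 3183 of all genes higher and 2306 to 3581 lower, and the log2 fold change of *DUSP6* was -2.22 to -1.76. The lowest count, 1574, came without *DUSP6* siRNA replicate 2. The difference of *IFNGR2* turned to 0.02 both without scrambled siRNA replicate 3 and without *DUSP6* siRNA replicate 1, with a range of -0.15 to 0.02. The cause of these shifts was not tested. Under the other settings 25 to 32 pathway genes were higher and 4 to 5 lower. Quantile normalization gave 2963 genes higher and 2876 lower, against 2540 and 3179. The size of the interferon changes depends on the scale. In edgeR on reads the log2 fold changes of *IFNB1* and of *IFNL1*, *IFNL2* and *IFNL3* were 5.94, 7.65, 7.60 and 8.40, and with a pseudocount of 0.1 they were 4.51, 6.35, 5.95 and 5.61. *IFNAR2* was at 0.72 in edgeR.

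Same-numbered libraries shared only a number, with correlations of 0.005, 0.087 and -0.076 between their deviations from the group means. With a replicate block, 2495 genes were higher and 3096 lower, and 5 of the 10 genes were higher.

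The depth limits what can be said of *IFNLR1*, with 10 to 20 reads per library, and of the interferon genes in scrambled siRNA libraries. The uneven split of *IFNL2* and *IFNL3* reads and the exon overlaps of *IFNAR2*, *IL10RB* and *IFNGR2* could not be resolved from gene-level values.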

Other observations

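For *IFNL1* and *IFNB1* the genes with the most similar profiles over the 6 libraries were found by the root mean square difference of centred log2(value + 1). Nearest to *IFNL1* were *PARP14*, an ADP-ribosyltransferase (0.144), *UBE2L6*, the conjugating enzyme of ISG15 (0.206), and *HLA-F*, a nonclassical class I molecule (0.213). The value of *HLA-F* is uncertain because other genes overlap its exons. *UBE2L6* had values of 7.25, 4.39 and 7.58 in scrambled siRNA replicates 1 to 3 and of 115, 56.9 and 115 in *DUSP6* siRNA replicates 1 to 3, with the same low replicate 2. Nearest to *IFNB1* were *ETV7*, a transcription factor (0.138), *PMAIP1*, which encodes the cell death protein NOXA (0.144), and *UBA7*, the activating enzyme of ISG15 (0.187). *PMAIP1* had values of 1.46, 1.24 and 1.54 with scrambled siRNA and of 10.1, 6.71 and 11.9 with *DUSP6* siRNA, again lowest in replicate 2. Over 6 libraries in 2 groups, a similar difference between groups is enough for a small distance. The genes were also picked by their likeness within the groups, so the shared low replicate 2 is partly a result of that choice.

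The receptor chains had other nearest genes, at distances from 0.0170 to 0.0484. They were *BPHL*, *SUZ12* and *GTDC1* for *IFNAR1*, *IFT52*, *PSMG2* and *LRRC28* for *IFNAR2*, and *KCTD18*, *TTLL11* and *INPP4A* for *IL10RB*. For *IFNGR1* they were *IDH1*, *USP14* and *CIAO1*, for *IFNGR2* *SUMF1*, *NRG3* and *ADAM10*, and for the sparsely read *IFNLR1* *TOR3A*, *TANK* and *PPP4R3A*. Distances this small are easily reached by genes that hardly vary.

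On chromosome 21, *GART*, a gene of purine synthesis close to the receptor cluster, was lower with *DUSP6* siRNA (log2 fold change -0.28, limma adjusted p = 0.0368), in the direction opposite to *TMEM50B*.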
